A study of Mus musculus with 18 samples.

Results

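The regions described here are the consensus ATAC-seq peaks that lie at microRNA (miRNA) genes of mouse cortical neurons in culture. A peak was a member if any of its bases fell within 1000 bp either side of a gene that RefSeq lists as miRNA on chromosomes 1 to 19. This rule took 521 of the 211682 peaks of the list, which lay at 435 of 1136 miRNA genes. The peaks were called on the mouse build mm10, and the genes were placed by RefSeq on GRCm38.p6, the same assembly.

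ATAC-seq marks accessible DNA by the cuts of the Tn5 transposase. The 18 samples were primary neurons from cortices of CD1 mouse embryos of day E14.5-15, all kept with cytosine arabinoside at 2 µM, which stops dividing cells, given lentiviral shRNAs on day 6 and taken on day 11. The shRNAs were against Opa1 and Atf4 in 5 samples, against Opa1 with a scrambled shRNA in 5, against Atf4 with a control shRNA in 3, and control with scrambled shRNA in 5. The file analysed is a single list with no value per sample or group and no depth, so no knockdown could be compared with its control, no value has a replicate error, and every statement below describes the pooled list.

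A miRNA gene is transcribed as a long precursor that is cut to a hairpin and then to a mature strand. The mature strand pairs with messenger RNAs mainly through its seed, bases 2 to 8 from the 5′ end, and represses them. Many miRNA genes lie inside introns of protein-coding genes and are transcribed with the host, while others have a start of their own or lie in long noncoding RNAs (lncRNAs). The start of the precursor can be far from the hairpin, so a peak near a hairpin need not mark that start. Neurons are known for high levels of miR-124, miR-9 and miR-128, for the activity-induced pair miR-132 and miR-212, and for the imprinted Dlk1-Dio3 miRNAs.

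The mature sequences of neuronal miRNAs whose genes lay under or beside a peak are shown first, grouped by seed, from the RefSeq table of GRCm38.p6. That table matched 966 of the 1136 genes to a mature sequence and 919 to a hairpin. The capitals mark the seed. miR-132-3p and miR-212-3p carry the same seed, and so do miR-34a-5p and miR-34b-5p.
miR-132-3p: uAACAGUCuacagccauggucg
miR-212-3p: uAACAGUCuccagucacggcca
miR-34a-5p: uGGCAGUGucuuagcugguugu
miR-34b-5p: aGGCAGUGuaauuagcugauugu
miR-9-5p: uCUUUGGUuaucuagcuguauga
miR-129-5p: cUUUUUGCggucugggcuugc
miR-137-3p: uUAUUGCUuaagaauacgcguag
miR-153-3p: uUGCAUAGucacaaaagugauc
miR-134-5p: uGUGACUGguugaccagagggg
miR-379-5p: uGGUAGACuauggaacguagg
The genes of some further neuronal miRNA families, among them miR-29 with a peak at 1 of 4 genes, differed among themselves in whether they had a peak. Equal or nearly equal mature RNAs thus came from loci in both states, as in the 3 such families shown here.
miR-7a-5p: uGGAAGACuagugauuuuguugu
miR-7b-5p: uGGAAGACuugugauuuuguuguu
miR-128-3p: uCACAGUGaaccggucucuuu
miR-125b-5p: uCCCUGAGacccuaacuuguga
These 3 were neuronal miRNAs of which no gene had a peak within 1000 bp.
miR-138-5p: aGCUGGUGuugugaaucaggccg
miR-218-5p: uUGUGCUUgaucuaaccaugu
miR-135a-5p: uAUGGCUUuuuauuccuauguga

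Accessible chromatin lay near a sizeable minority of all miRNA genes and over fewer of them. Of 1136 miRNA genes, 435 (38.3%) had a peak within 1000 bp and 220 (19.4%) had a peak over the hairpin gene itself. Of 1155051 consecutive windows of 2080 bp on chromosomes 1 to 19, the median length of the miRNA windows, 18.7% held a peak. That share is a background for the 38.3% and not for the 19.4% over the hairpin gene. No share for intervals as short as a hairpin is given, and peaks covered 4.48% of the sequence of these chromosomes. Small RNA genes of other kinds had lower shares than miRNA genes, with 16.8% of 1276 snoRNA genes and 18% of 924 snRNA genes having a peak within 1000 bp. The median gap to the nearest peak was 1724.5 bp for miRNA genes, against 4928 bp for the centres of the consecutive windows. These are counts over annotated genes, which are not replicates and share peaks with neighbours.

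Part of this share came with the ends of protein-coding genes. Of the 521 peaks, 141 (27.1%) lay within 1000 bp of either outermost end of a protein-coding gene, against 10.5% of all 208005 peaks of chromosomes 1 to 19. With such peaks left out, 28.8% of miRNA genes had a peak, against 16.7% of the consecutive windows. Most miRNA genes with a peak had a single peak in the window (305 genes), while 95 had 2 peaks, 27 had 3, 6 had 4 and 2 had 6.

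The share of miRNA genes with a peak was lower inside protein-coding genes than outside, while that of consecutive windows was higher inside. Neither difference was tested. Inside, 278 of 781 miRNA genes (35.6%) had a peak within 1000 bp, against 24.1% of the consecutive windows centred in protein-coding genes. Outside, 153 of 349 miRNA genes (43.8%) had one, against 14.9% of the windows centred outside protein-coding genes. The gap between inside and outside was smaller without the Sfmbt2 and Dlk1-Dio3 clusters, at 37.2% inside and 40.2% outside. With miRNA genes within 10 kb of each other joined into units, the shares were 38.3% and 41.8%. A peak over the hairpin was found at 122 genes (15.6%) inside and at 94 (26.9%) outside. The median gap to the nearest peak was 1943 bp inside and 1342 bp outside. The remaining 6 miRNA genes lay partly in a protein-coding gene, and 4 of them had a peak.

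Inside genes, the strand and the host's start were recorded where RefSeq gives them. Of 482 miRNA genes on the strand of their host, 191 (39.6%) had a peak within 1000 bp, and of 80 on the opposite strand 24 (30%) had one. Where the same-strand host itself had a peak within 1000 bp of a listed start, 183 of 451 miRNA genes (40.6%) had a peak. Where no listed start of the host had a peak within that distance, 8 of 31 miRNA genes (25.8%) had one. A single peak can meet both conditions where the miRNA lies near a start of its host. Of the 183 genes, 65 had a peak at an end of a protein-coding gene, and of the 8 genes 1 did. The part of such shared peaks in the difference was not tested. Outside protein-coding genes, 48 of 113 miRNA genes inside an lncRNA (42.5%) and 102 of 226 in no annotated host (45.1%) had a peak.

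The share of genes with a peak was higher for neuronal miRNA genes than for the other miRNA genes. For the window of 1000 bp, the order of the shares differed between genes outside and inside protein-coding genes. Of 44 neuronal genes, 25 (56.8%) had a peak within 1000 bp and 16 (36.4%) had a peak over the hairpin. Of the 1092 other miRNA genes, 410 (37.5%) had a peak within 1000 bp and 204 (18.7%) one over the hairpin. The median gap to the nearest peak was 406 bp for neuronal and 1800 bp for other genes. Outside protein-coding genes, 20 of 27 neuronal genes (74.1%) and 133 of 322 others (41.3%) had a peak. Inside them the order within 1000 bp was the other way round, with 5 of 17 neuronal genes (29.4%) and 273 of 764 others (35.7%). It was not reversed inside for a peak over the hairpin, found at 4 neuronal genes (23.5%) and 118 others (15.4%). Nor was it reversed within 2500 bp, where 12 of the 17 and 423 of the 764 had a peak. The median gaps inside were 1479 bp for neuronal and 1965.5 bp for other genes. Of the 27 outside genes, 4 belong to the Dlk1-Dio3 cluster, and without them 21 of 40 neuronal genes (52.5%) had a peak. No test was run on these differences, since genes of a family and neighbours under the same peak are not independent, and the list was chosen from general knowledge of brain miRNAs.

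**Figure D1:**
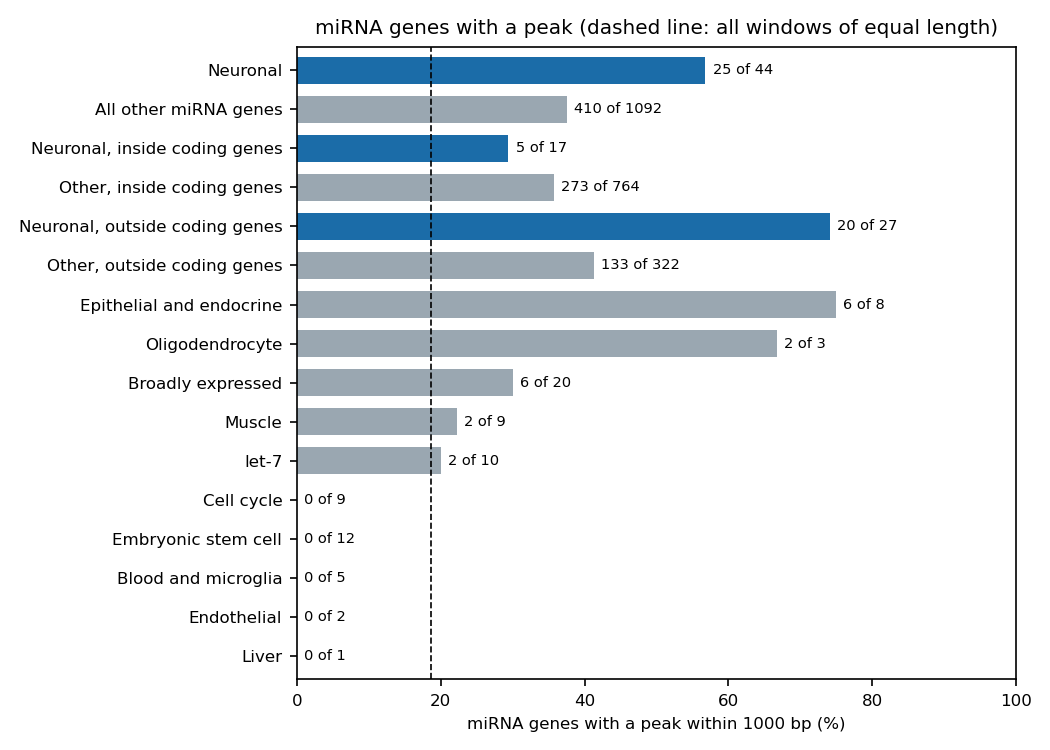
Share of miRNA genes with a consensus peak within 1000 bp (percent, horizontal axis) for neuronal genes (blue) and for the other sets (grey), with counts beside the bars and the 18.7% of all windows of equal length as a dashed line. Neuronal genes outside protein-coding genes stood at 20 of 27, and the embryonic stem cell, cell cycle, blood and microglia, endothelial and liver sets at 0 for this window.

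The miR-124 genes, which encode a miRNA of neurons that restrains non-neuronal messages, had a peak in 3 of 3 cases. Mir124a-3 (chromosome 2, 180894040 to 180894107) had 3 peaks in its window, of 988, 555 and 929 bp, and the peak of 555 bp reached into the hairpin. Over the hairpin of Mir124a-2 (chromosome 3, 17795662 to 17795770) lay a peak of 278 bp, with another of 306 bp in the window. At Mir124a-1 (chromosome 14, 64590657 to 64590741) a peak of 1096 bp ended 120 bp from the hairpin. All 3 lie outside protein-coding genes.

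The miR-9 genes, which act in the change from progenitor to neuron, had peaks in 3 of 3 cases as well. Mir9-1 (chromosome 3, 88215598 to 88215686) lay under a peak of 410 bp, with a wider peak of 1015 bp 638 bp upstream. Mir9-3 (chromosome 7, 79505264 to 79505353) lay under a peak of 784 bp, followed by narrow peaks of 140 and 316 bp downstream. Mir9-2 (chromosome 13, 83738814 to 83738885) had no peak over the hairpin and a peak on each side, of 347 bp at 661 bp upstream and of 743 bp at 498 bp downstream. The copies thus differed in whether the hairpin itself was under a peak. Their hairpins, with the mature miR-9-5p in capitals, hold the same mature strand in different flanks.
Mir9-1: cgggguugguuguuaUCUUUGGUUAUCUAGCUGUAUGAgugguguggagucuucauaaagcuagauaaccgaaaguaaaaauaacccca
Mir9-3: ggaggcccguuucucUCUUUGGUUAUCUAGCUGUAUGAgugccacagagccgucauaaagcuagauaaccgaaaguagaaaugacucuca
Mir9-2: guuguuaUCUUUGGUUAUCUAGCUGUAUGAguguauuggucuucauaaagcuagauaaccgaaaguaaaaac

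Each miR-9 gene lies in an lncRNA, and each of these hosts had a peak at its first listed start. A start window ran from 250 bp before to 50 bp after a listed start. Of 40 lncRNA hosts on the strand of their miRNA, 24 (60%) had a peak in a start window. The peak at the start of Gm3764, the host of Mir9-1, was the same 1015 bp interval that lay upstream of the hairpin (chromosome 3, 88213946 to 88214960). At Mir9-3hg the peak over the first start was 699 bp wide (chromosome 7, 79499448 to 79500146), and a second listed start had no peak in its window. At C130071C03Rik, the host of Mir9-2, all 3 listed starts had a peak, of 1774, 924 and 369 bp. The start windows of Gm3764 and Mir9-3hg each held the cyclic AMP response element TGACGTCA, the letters that the bZIP factors CREB and ATF bind, which 1.83% of 31396 RefSeq start windows held. The windows are shown with that motif in capitals, on the strand of the gene.
Gm3764, chr3:88214232-88214531, + strand, mm10: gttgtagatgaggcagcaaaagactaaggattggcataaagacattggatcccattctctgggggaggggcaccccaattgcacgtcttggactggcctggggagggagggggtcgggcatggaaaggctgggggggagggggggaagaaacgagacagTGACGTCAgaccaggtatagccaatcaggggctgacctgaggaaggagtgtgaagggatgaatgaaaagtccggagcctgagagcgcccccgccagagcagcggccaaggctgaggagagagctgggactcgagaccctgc
Mir9-3hg, chr7:79499776-79500075, + strand, mm10: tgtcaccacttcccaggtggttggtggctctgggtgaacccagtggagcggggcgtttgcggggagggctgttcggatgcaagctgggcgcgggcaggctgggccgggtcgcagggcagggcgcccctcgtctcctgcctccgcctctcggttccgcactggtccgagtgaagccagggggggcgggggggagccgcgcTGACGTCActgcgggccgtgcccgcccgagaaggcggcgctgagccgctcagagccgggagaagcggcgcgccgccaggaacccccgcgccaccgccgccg
The window of Mir9-3hg held 35 CpG dinucleotides and that of Gm3764 held 9. The first start window of C130071C03Rik held none of the CRE letters and held the E-box CAGCTG, the letters of the proneural bHLH factors, as did 16.3% of all start windows. Its second start window held TTCAGCACC, the left part of the element bound by the neuronal repressor REST, on the opposite strand, as did 0.373% of all start windows. A match is a description of letters and says nothing of whether a factor was bound.

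Mir132 and Mir212, a pair induced through CREB by neuronal activity that acts on dendrites and synapses, shared the widest peak over any neuronal hairpin. It was 1915 bp wide (chromosome 11, 75172024 to 75173938) and covered Mir212 (75173388 to 75173478) and Mir132 (75173682 to 75173747) near its upper end. Most of its length lay upstream of Mir212 on the strand of the genes. The hairpins, with the mature strand that carries the shared seed in capitals, are these.
Mir132: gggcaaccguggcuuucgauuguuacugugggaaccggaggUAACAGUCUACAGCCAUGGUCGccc
Mir212: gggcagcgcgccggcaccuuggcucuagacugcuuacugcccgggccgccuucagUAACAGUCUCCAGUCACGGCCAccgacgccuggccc

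Other neuronal genes outside protein-coding genes with a peak over the hairpin were Mir137, Mir34a and Mir129-2. Mir137 (chromosome 3, 118433857 to 118433929), known from human genetics for its link with schizophrenia, had 3 peaks in its window, of 358, 333 and 802 bp, and the peak of 333 bp covered the hairpin. Mir34a (chromosome 4, 150068454 to 150068555), a target of p53, lay under 1 peak of 385 bp. Mir129-2 (chromosome 2, 94241364 to 94241453), whose product acts in synaptic downscaling, lay at the edge of a peak of 794 bp and had a peak of 495 bp downstream. Its second copy, Mir129-1, had a peak of 854 bp at 303 bp downstream and none over the hairpin. The host of Mir129-2, Mir670hg, had a peak of 2087 bp over its listed starts, whose windows held the AP-1 letters TGANTCA, as did 7.84% of all start windows.

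Peaks beside the hairpin and not over it were found at Mir7-2, Mir7b, Mir125b-1 and Mir29c. Mir7-2, which encodes miR-7a, a miRNA held by the circular RNA Cdr1as in brain, had a peak of 646 bp at 314 bp upstream. Mir7b had a peak of 1165 bp at 505 bp upstream. Mir125b-1, in Mir100hg, had 3 peaks, of 557, 306 and 280 bp, the nearest 144 bp downstream. Mir29c, of a family that rises as neurons mature and restrains cell death genes, had a peak of 501 bp at 695 bp downstream. These peaks lay upstream of the miR-7 genes, on both sides of Mir125b-1 and downstream of Mir29c. The starts of Mir100hg and of A330023F24Rik, the host of Mir29b-2 and Mir29c, had peaks of 1046 and 765 bp. Each of the 6 lncRNA hosts on the strand of a neuronal miRNA had a peak at its first listed start. For all 40 such hosts of any miRNA, the share with a peak in a start window was 60%. For all lncRNA genes with a listed start it was 31.8%. The composite element of ATF4, TGATGNAAT, was in none of the start windows of the 6 neuronal hosts and in 0.987% of all start windows. All motifs were searched on both strands.

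Of the 17 neuronal genes inside protein-coding genes, 5 had a peak. Mir128-2 (chromosome 9, 112118636 to 112118711), inside Arpp21, which encodes a phosphoprotein regulated by cyclic AMP, lay under a peak of 1516 bp (112118042 to 112119557) and had another of 433 bp upstream. Mir128-1 (chromosome 1, 128202361 to 128202430), inside R3hdm1, had no peak within 1000 bp, and the nearest was 5876 bp away. The pair encodes the same mature miR-128-3p, which lowers neuronal excitability, from hairpins that differ outside it.
Mir128-2: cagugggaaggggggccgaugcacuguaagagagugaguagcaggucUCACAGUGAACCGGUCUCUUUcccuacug
Mir128-1: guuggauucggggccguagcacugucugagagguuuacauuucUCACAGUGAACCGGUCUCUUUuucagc
Mir34b and Mir34c, inside Hoatz and Btg4, shared a peak of 1042 bp (chromosome 9, 51102987 to 51104028) that covered both hairpins. That peak also lay within 1000 bp of an end and of a listed start of a protein-coding gene. Mir153 (chromosome 12, 117250817 to 117250885), inside Ptprn2, which encodes a protein of secretory vesicles, lay under a peak of 664 bp. Mir149 (chromosome 1, 92850378 to 92850443), inside the glypican gene Gpc1, had peaks of 1974 and 251 bp upstream, and the narrow one was nearest at 66 bp. The seed of miR-34 is shared with Mir449a and Mir449c inside Cdc20b. Of the genes with this seed in the RefSeq mature sequences, 4 of 4 had a peak within 1000 bp, against 38.3% of all miRNA genes. For Mir449a the nearest peak was 995 bp away. The peaks at Mir34b, Mir449a and Mir449c lay within 1000 bp of a listed start of a protein-coding gene.

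The 19 neuronal genes without a peak in the window included whole families. No gene of miR-135, miR-138, miR-181a or miR-218 had a peak. Mir218-1 and Mir218-2 lie inside the axon guidance genes Slit2 and Slit3, and their nearest peaks were 1479 and 7745 bp away. Mir138-1 and Mir138-2, whose product limits the size of dendritic spines, had their nearest peaks at 3981 and 1692 bp. Mir181a-1 and Mir181a-2 had theirs at 5897 and 11260 bp. For the miR-135 genes Mir135a-1, Mir135a-2 and Mir135b, the nearest peaks were 1975, 2618 and 1191 bp away. The families thus ranged from just beyond the window to well outside it.

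The other neuronal genes without a peak were of mixed families or had no second copy. Mir7-1, inside Hnrnpk, had its nearest peak at 4315 bp. Mir125b-2 and Mir125a had theirs at 1454 and 1209 bp. The gaps for Mir29a, Mir29b-1 and Mir29b-2 were 2745, 3108 and 1209 bp. Mir29b-2 and Mir29c lie in the same cluster, and the peak of 501 bp was inside the window of Mir29c and outside that of Mir29b-2. Mir346, inside the glutamate receptor gene Grid1, and Mir488, inside Astn1, had their nearest peaks at 1409 and 1530 bp. Mir592, inside the glutamate receptor gene Grm8, had the widest gap of the 44, at 19468 bp.

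**Figure D2:**
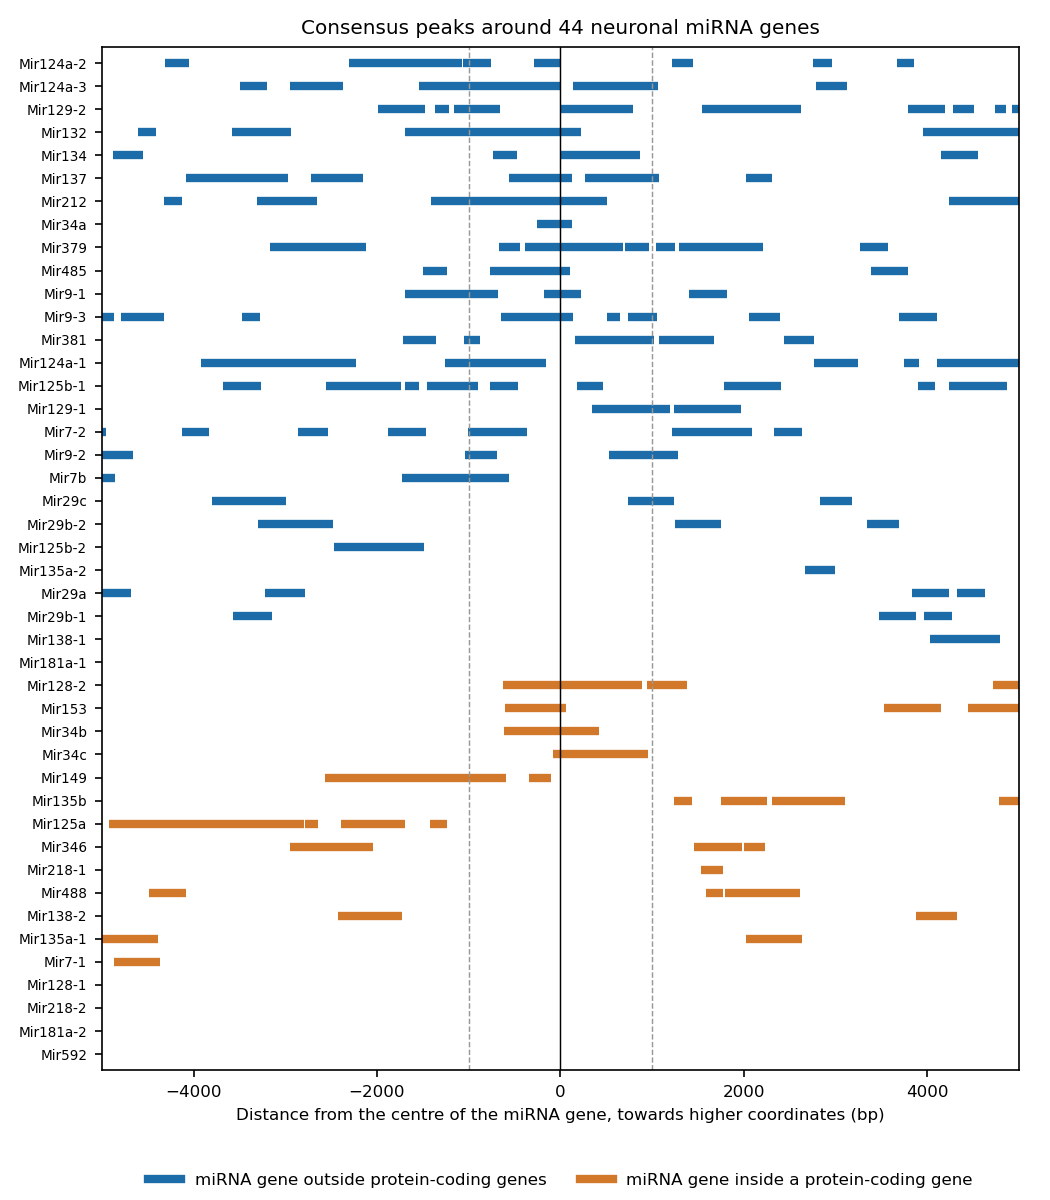
Consensus peaks (bars) within 5 kb of the centre of each of the 44 neuronal miRNA genes, placed by distance in bp towards higher coordinates, with the 1000 bp marks dashed and genes outside (blue) above those inside protein-coding genes (orange). The bars over the centre line belong to genes such as Mir132, Mir212 and Mir128-2, and no bar appears for Mir592, whose nearest peak was 19468 bp away.

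Coverage by peaks was highest close to the neuronal hairpins. Among the 41 neuronal genes with a strand in RefSeq, 31.7% were covered at the centre of the gene, against a mean of 13% at 5 to 10 kb. Among the 652 genes with a strand inside protein-coding genes the values were 15.6% and 9.85%, and among the 322 outside they were 24.8% and 10.2%. Over the 1 kb upstream of the centre the neuronal genes had a mean of 29%, and over the 1 kb downstream 20.5%. The same means were 13.7% and 12.9% inside protein-coding genes and 18.3% and 13.8% outside. With 41 genes, each gene moves the neuronal curve visibly, and at 5 to 10 kb that curve ranged between 4.88% and 22%.

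**Figure D3:**
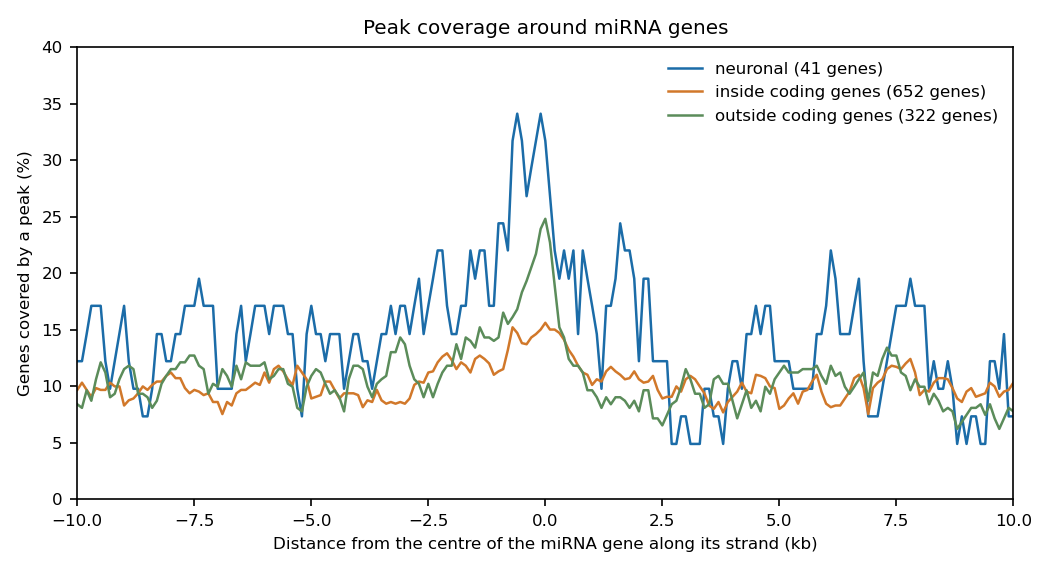
Share of miRNA genes covered by a peak (percent) at each distance from the centre of the gene along its strand (kb), for 41 neuronal genes, 652 genes inside and 322 outside protein-coding genes. The neuronal curve reached 34.1% at 600 bp upstream, and the others reached 15.6% inside and 24.8% outside at the centre.

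The Dlk1-Dio3 region of chromosome 12, an imprinted domain whose miRNAs are made from the maternal chromosome and are abundant in brain, had peaks within 1000 bp of 44 of the 58 miRNA genes from Mir770 to Mir410 (75.9%) and over 24 of them. The cluster from Mir379 to Mir3072 (109709060 to 109747960) held 39 genes, of which 25 had a peak. The stretch with its flanks of 1000 bp held 20 peaks, which covered 23.1% of it. The cluster from Mir770 to Mir136 (109563692 to 109595397) held 16 genes, of which 15 had a peak, and its stretch with flanks held 20 peaks, which covered 31.5%. Across chromosomes 1 to 19, peaks covered 4.48% of the sequence. The density was 4.89 and 5.93 peaks per 10 kb in these clusters, against 0.866 across the chromosomes.

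Within the domain, 4 genes of the neuronal list were covered or flanked. Mir134, which restrains the growth of dendritic spines, and Mir485, which acts at synapses, shared a peak of 877 bp (109734167 to 109735043) that also covered Mir668 and lay within reach of 5 miRNA genes. Mir379, the first gene of its cluster, lay under a peak of 1076 bp and had peaks of 229 and 264 bp on either side. Mir381 had a peak of 861 bp at 119 bp downstream and another of 172 bp at 842 bp upstream. The last 7 genes of the cluster, from Mir377 to Mir3072, had no peak in the window. The stretch from Mir376c to Mir376a also had none.

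The miRNA cluster with the most genes had few peaks. It lies inside Sfmbt2 on chromosome 2 (10466663 to 10518279) and holds 72 miRNA genes of the miR-297, miR-466, miR-467 and miR-669 families, which are best known from the placenta. Of these genes 6 (8.33%) had a peak within 1000 bp, and 1, Mir669h, had a peak over the hairpin. Peaks covered 0.94% of the stretch with its flanks of 1000 bp, at 0.373 per 10 kb. Copies of these families resemble each other, and the labels do not give the handling of reads that map to several places. Its part in the result was not tested.

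**Figure D4:**
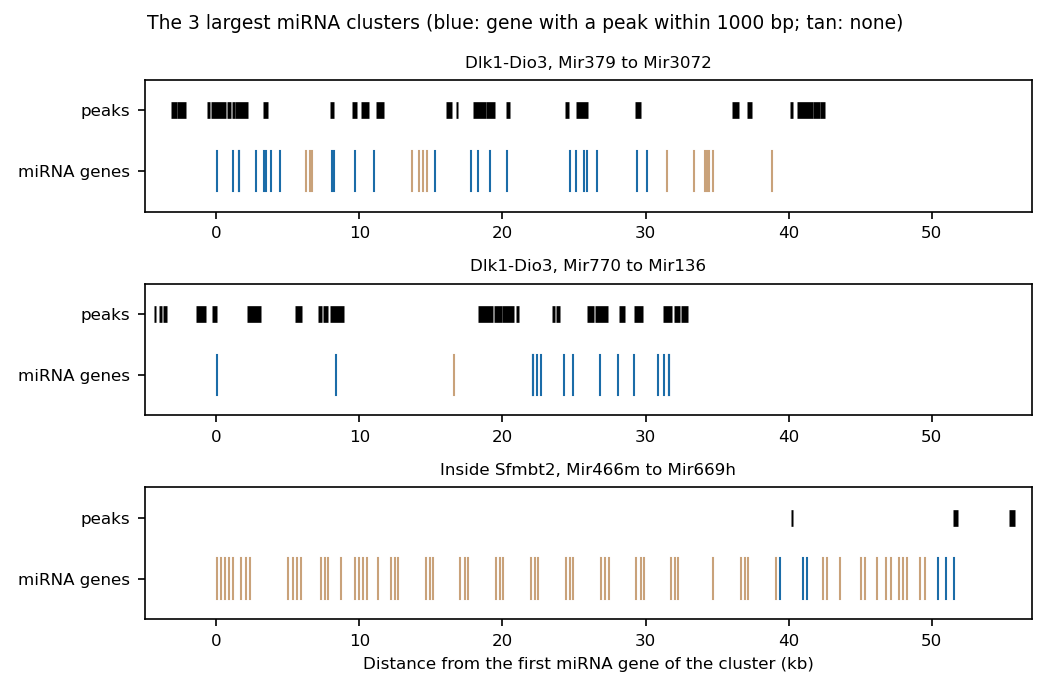
The 3 largest miRNA clusters drawn to 1 scale, with distance in kb from the first miRNA gene, peaks as black bars and miRNA genes as ticks (blue with a peak within 1000 bp, tan without). The Dlk1-Dio3 clusters had a peak at 25 of 39 and 15 of 16 genes, and the cluster inside Sfmbt2 at 6 of 72.

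Joining neighbours within 10 kb gave 88 clusters of 2 or more genes with 329 genes, and 51 of the clusters (58%) had a peak for at least 1 gene. In 30 clusters every gene had one. Some of these are overlapping entries at the same locus, such as Mir9-3 with Gm51285 within 90 bp and Mir203 with Gm51289 within 76 bp. Such entries share their peaks, and Gm51285 was counted among the other miRNA genes. Of the 329 clustered genes 133 (40.4%) had a peak, against 302 of the 807 genes that stood alone (37.4%). Among the remaining clusters with the most genes, the clusters from Mir290a to Mir295 (9 genes), from Mir17 to Mir92-1 (6 genes) and from Mir302b to Mir367 (5 genes) had no peak in a window. The 4 genes from Mir23a to Mir3074-2 lay under 1 peak of 608 bp (chromosome 8, 84208443 to 84209050). The 4 genes from Mir344d-3 to Mir344h-2 each had a peak, and of the 4 from Mir23b to Mir24-1, 2 had one. Of the 12 clusters tied at 3 genes, 6 had a peak for at least 1 gene and 3 for every gene. Those with a peak for every gene included Mir449c to Mir449a, while Mir497b to Mir195a had none.

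The lists of other cell types were set beside the label of the cultures, with the 38.3% of all miRNA genes and the 18.7% of windows as the background. The lists are short, and many of their genes are neighbours in the same cluster and not independent. Their counts thus say little about which cells were present. None of the 5 genes of the blood and microglia list on these chromosomes had a peak within 1000 bp, and the nearest peaks of Mir142, Mir144 and Mir150 were 2728, 6754 and 2035 bp away. The endothelial genes Mir126a and Mir126b, inside Egfl7, had none, with 3920 and 3926 bp to the nearest, and neither had the liver gene Mir122, at 3264 bp. Of 9 muscle genes 2 had a peak beside the hairpin and none over it, and Mir133a-1, Mir133a-2 and Mir1a-1 had none in the window. Embryonic stem cell genes (0 of 12, among them Mir290a, Mir291a and Mir291b) and cell cycle genes (0 of 9, among them Mir106b, Mir17 and Mir18) had none. Their nearest peaks were 1152 to 3285 bp and 1015 to 3956 bp away, and within 2500 bp, where 58% of all miRNA genes had a peak, 7 of the 12 and 6 of the 9 had one. These counts of 0 thus held for the window of 1000 bp and not for the wider one. The absence of a peak in a window does not show that a gene is closed, since the list holds only what passed the authors' calling.

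Other lists were not empty. Of 3 oligodendrocyte genes 2 had a peak. Mir219a-1 lay under a peak of 1265 bp that is also at the start of the protein-coding gene Ring1, Mir338 inside Aatk had one of 956 bp at 846 bp, and Mir219a-2 had none. Of 8 epithelial and endocrine genes 6 had a peak within 1000 bp (75%), against 56.8% of the neuronal genes, and 2 had one over the hairpin (25%), against 36.4% of the neuronal genes. For 3 of the 6 the peak lay at an end of a protein-coding gene. Mir203 lay under a peak of 908 bp and Mir375 under one of 773 bp, while Mir200a and Mir200b had none in the window. Which cells of the cultures gave these peaks cannot be told apart from the list, and the part of cells other than neurons in the results was not tested.

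The shares of widely expressed miRNA genes with a peak were below that of the neuronal ones. Of the let-7 genes, which mark differentiated cells, 2 of 10 had a peak: Mirlet7i under a peak of 1412 bp, and Mirlet7e beside one of 179 bp. Mirlet7a-1, Mirlet7a-2 and Mirlet7b had none in the window. Of 20 broadly expressed genes 6 (30%) had a peak, with Mir23a, Mir27a and Mir24-2 under the shared peak of 608 bp. Mir103-1, Mir103-2 and Mir107 had none.

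The median of the members was above that of all peaks. The 521 peaks had a median width of 536 bp (quartiles 330 and 960 bp), and the extremes were 135 and 2438 bp. For all peaks of chromosomes 1 to 19 the median was 426 bp (quartiles 308 and 625 bp). The peaks at neuronal genes had a median of 556 bp (40 peaks) and those at other genes only of 535 bp (481 peaks). Inside protein-coding genes the median was 490 bp and outside 604 bp. The 201 peaks over a hairpin had a median of 864 bp, and a wider peak by construction covers a given gene more easily. At ends of protein-coding genes the median was 1096 bp, and away from them 470.5 bp, against 414 bp for all peaks away from such ends.

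**Figure D5:**
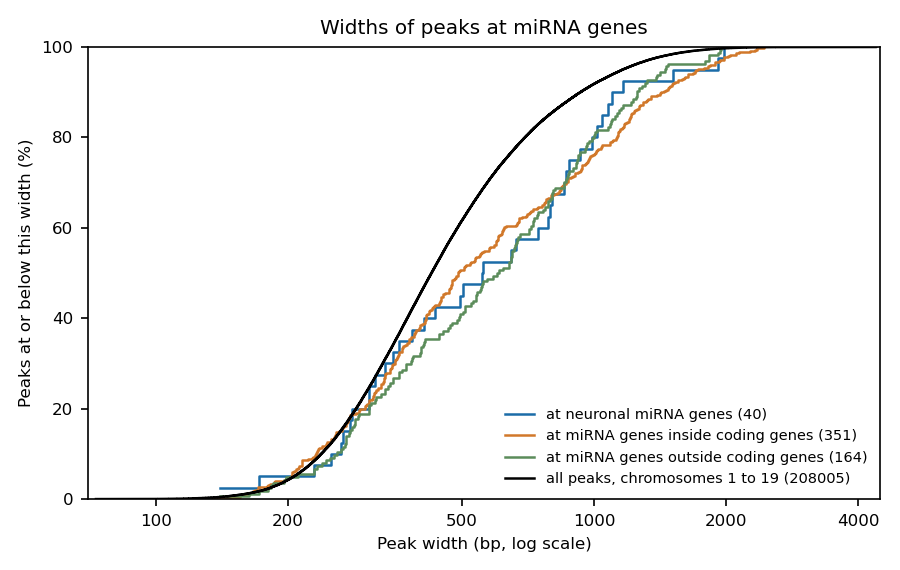
Cumulative share of peaks (percent) by width (bp, log scale) for peaks at neuronal miRNA genes, at miRNA genes inside and outside protein-coding genes, and for all peaks of chromosomes 1 to 19 (black). At the median of all peaks, 426 bp, each coloured curve lies below the black one, since the peaks at miRNA genes had medians from 490 to 604 bp.

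Of the 10 widest peaks at miRNA genes, 7 lay within 1000 bp of an end of a protein-coding gene. The widest, of 2438 bp, lay beside Mir378a, inside Ppargc1b, the coactivator of mitochondrial biogenesis (chromosome 18, 61398389 to 61400826). The next lay over Mir5130 in Kctd12 (2353 bp), Mir7045 in the chromatin remodeller gene Chd4 (2328 bp), and Mir1956 in the translation factor gene Eif4e (2272 bp). They were followed by peaks over Mir1903 in the neuropilin gene Nrp1 (2144 bp), Mir1901 in Cables1 (2106 bp), Mir1895 in Cxxc4 (2047 bp), Mir7655 in Mllt10 (2023 bp) and Mir6991 in 2700081O15Rik (1983 bp). The tenth was the peak of 1974 bp beside Mir149. The peaks at Mir1895, Mir6991 and Mir149 were those away from such an end.

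The hosts of miRNAs outside protein-coding genes could be followed to their own starts. Of 40 lncRNA hosts on the strand of their miRNA, 24 (60%) had a peak in a start window, against 2959 of 9291 lncRNA genes with a listed start (31.8%). Among those 24, 15 also had a peak within 1000 bp of the miRNA, and among the 16 without a start peak, 6 had one. A single peak can meet both conditions, as at Gm3764. Meg3 and Mirg of the Dlk1-Dio3 domain had a peak at a start, and Rian, between them, had none, although all 3 had a peak at a miRNA.

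The edge of the window decided few genes. The nearest peak lay in the last 100 bp of the window for 21 genes, with a median width of 365 bp, and in the first 100 bp beyond it for 22 genes, with a median width of 599 bp. Mir133b and Mir449a, at 984 and 995 bp, were just inside, and Mir17, at 1015 bp, just outside.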

How the data were processed

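Accessibility was measured by ATAC-seq in 18 samples of 4 groups. The authors deposited 1 consensus peak list with positions, names and a score. Per the submitters' processing notes, MACS2, deepTools, MultiQC and mm10 were used, and peaks are named after MSPC, which merges calls of replicates. Nothing in the sources used here gives the aligner, the thresholds, the treatment of repeated reads or the samples that entered the list. The authors' deposited score stood at 1000 for 98.5% of peaks and was not used for ranking. The list has no counts, so depth is unknown.

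Genes came from RefSeq (GRCm38.p6). Chromosomes 1 to 19 held 1136 miRNA genes, and strand was known for 980. Inside means that the whole miRNA gene lay between the outermost ends of a protein-coding gene. Windows, gaps, clusters (neighbours within 10 kb) and shares were computed with Python (3.11.15), scipy (1.17.1), pandas (2.3.3), numpy (2.4.6) and matplotlib (3.10.9), after lookups had been checked on simulated data. No test was run, since the list has no replicates.

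The members and the 11 miRNA lists were chosen with earlier results of these data known. Of the lists, Mir223 and Mir98 lie on chromosome X, outside the rule. Genes named are those of the neuronal list, the 10 widest peaks, the 10 clusters with the most genes, from each other list those with a peak over the gene and up to 3 without a peak, and the miRNA gene with the most peaks, which is not reported here. Others were chosen after their values were seen.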

Additional observations from a re-analysis of the deposited data

Results flagged for a closer look

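Chromosome X lay outside the rule. There, 9 of 92 miRNA genes had a peak within 1000 bp (9.78%, exact Clopper-Pearson 95% interval 4.57 to 17.8%). On chromosomes 1 to 19 the share was 38.3% of miRNA genes and 18.7% of windows of equal length. The difference was not tested, and the interval covers counting error only. No share of windows on chromosome X is given, so the 9.78% has no background from its own chromosome. Of all 211682 peaks of the list, 208005 lay on chromosomes 1 to 19.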

How the results depend on the processing

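No paired analysis was possible because the peak list gives no sample's own values. Of 44 alternatives, 18 stayed within the counting interval of the value reported. The shares moved with the window, as its construction makes them. With a peak over the gene itself they were 19.4% for all miRNA genes, 15.6% inside, 26.9% outside, 36.4% neuronal and 18.7% other. With 500 bp they were 29% for all, 25.5% inside, 36.4% outside and 28.1% other, and with 2500 bp 58%, 55.7%, 63%, 77.3% neuronal and 57.2% other. With peaks of at least 500 bp they were 25.7% for all, 22.3% inside, 32.7% outside and 24.6% other. Without peaks at protein-coding gene ends they were 28.8%, 26%, 35.5% and 27.9% in the same order. The neuronal share was higher than the other share in 8 of 8 settings, the main one included. These settings reuse the same peak list and largely the same genes, so they are not independent of each other. None of them separated genes inside from genes outside protein-coding genes. The median width was 864 bp for peaks over the gene, 606 bp with 500 bp, 484 bp with 2500 bp and 470.5 bp without peaks at coding gene ends. Leaving out the Sfmbt2 and Dlk1-Dio3 clusters, for the 5 shares of genes, and keeping genes of scaffolds, for the share of all miRNA genes alone, were alternatives chosen after seeing the data, and left these shares within their counting intervals. Without depth or replicates, no share has an error beyond counting, and a missing peak may be a site below the authors' calling threshold.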

Other observations

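The miR-344 family stood out after the values had been seen. All 13 of its genes, spread over 402187 bp of chromosome 7 (61683124 to 62085310) and none in a protein-coding gene, lay within 1000 bp of a peak, and 12 lay under a peak. It was the only 1 of the 15 families with at least 4 genes on these chromosomes in which every gene had a peak. The peaks did not run together: 16 separate peaks lay in the 13 windows, and the widest in each window had a median of 729 bp, from 271 bp at Mir344e to 1092 bp at Mir344g. Mir344e had no peak over the hairpin, and its nearest lay 22 bp away. Of the 12 genes with a named 5p strand, 7 carried the seed GUCAGGC, which the capitals show in 4 of them, beside 1 with another seed.
miR-344-5p: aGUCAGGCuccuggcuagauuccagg
miR-344b-5p: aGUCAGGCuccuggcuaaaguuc
miR-344c-5p: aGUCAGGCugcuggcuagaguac
miR-344g-5p: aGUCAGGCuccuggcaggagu
miR-344h-5p: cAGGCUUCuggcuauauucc
The hairpins of this family resemble each other, and the labels do not give the handling of reads that map to several places. Its part in the count was not tested. Families of comparable size differed, with a peak at 2 of 10 let-7 genes and at 2 of 17 miR-467 genes.

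The base composition of the hairpins differed with the presence of a peak. Where a peak lay in the window, the median GC content of 380 hairpins was 55.2%, against 50.4% of 539 hairpins without one. Inside protein-coding genes the medians were 56.1% and 51.9%, and outside they were 51.4% and 46.8%. Among the neuronal genes they were 47.2% (22 hairpins) and 45.8% (18 hairpins), so the neuronal genes were lower in GC content in both states than miRNA genes as a whole. The part of base composition in the results was not tested.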
